A study of Mus musculus with 12 samples.

Results

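The response of B16F0 melanoma cells to SX-682 was read from 4 libraries, 2 of untreated B16F0 cultures and 2 of B16F0 cultures given SX-682, out of the 12 libraries of the series. The libraries were chosen by the names of their columns in the count table, and all 34513 genes of the table were considered. B16F0 is a pigmented mouse melanoma line of C57BL/6 origin, and SX-682 is a small-molecule inhibitor of the chemokine receptors CXCR1 and CXCR2. The remaining libraries, 2 for each group, come from untreated and SX-682-treated cultures of B16F10, a more metastatic derivative of B16F0, and of Melan-A, a non-tumorigenic mouse melanocyte line, and they were used here only to ask where the B16F0 response differed. The control cultures are labelled as having no treatment, so a vehicle effect and an effect of the inhibitor cannot be told apart. The dose and duration of SX-682 in these cultures are not given in the sources used here, and neither is whether the replicate libraries come from separate cultures. Each p-value therefore rests on the spread between replicate libraries, which may be technical. For p-values and standard errors alike, this spread was estimated from all 12 libraries with information shared between genes, not from the 4 of B16F0 alone.

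CXCR1 and CXCR2 bind chemokines such as CXCL1, and melanoma cells can make these ligands themselves. Melanocytic cells are defined by the transcription factor MITF, which with SOX10 and PAX3 maintains the enzymes and transporters of the pigment granule. In cells under amino acid shortage or other stress, the kinases of the integrated stress response slow translation while favouring that of ATF4, a transcription factor that raises amino acid synthesis and uptake genes and, with its target CHOP (Ddit3), a set of stress genes.

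The 4 B16F0 libraries held 75138976 and 67306101 counts in the controls and 66581564 and 48876982 counts in those given SX-682. Levels are given as CPM, the reads of a gene relative to the scaled library size. The floor, set at 3 counts and covering counting error only, lay between 0.04 and 0.0623 CPM. Reads on mitochondrial genes made up 0.756% and 0.779% of control counts and 0.847% and 0.863% of SX-682 counts, and whether this difference bears on any result was not tested. Melanocyte markers were abundant in every B16F0 library, with Pmel between 4024 and 4548 CPM, whereas the defining hematopoietic markers Cd3e and Itgam and the keratinocyte marker Krt5 had 0 counts in all 4. The summed level of 6 hematopoietic markers was 0.187 and 0.253 CPM in controls and 0.501 and 0.415 CPM with SX-682, and that of 4 endothelial markers was 0.0934 and 0.164 CPM against 0.622 and 1.10 CPM. Of the hematopoietic markers, Lyz2 was called raised, with 7 and 14 counts in controls and 19 and 16 with SX-682. The endothelial sum was carried by Pecam1, with 5 and 9 counts in controls and 32 and 50 with SX-682. Tek, with 0 and 1 counts against 9 and 1, was also called raised, and Cdh5 and Kdr had at most 2 counts in any library. The part of such cells in the results was not tested. Epithelial markers summed to between 1.41 and 1.72 CPM over the 4 libraries. Fibroblast markers summed to 28.6 and 27.2 CPM against 32.0 and 33.9 CPM, of which Pdgfrb, Pdgfra and Col1a1 gave most, while Dcn and Lum had at most 3 counts in any library.

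Of 18338 genes tested with edgeR's quasi-likelihood test, 25.1% were raised by SX-682 and 25.0% were lowered at an adjusted p under 0.05. These are 4594 and 4593 genes, and the shares are the background against which the counts of each gene group below are read. The gene groups were chosen with earlier results of these data known, so these comparisons are descriptive. Most of the changes were small. The median size of a called change was 0.39 on the log2 scale, and 61.2% of called genes moved by less than 0.5. Changes of at least 2-fold were seen for 856 raised genes (4.67% of those tested) and 579 lowered genes (3.16%). Among these, 243 raised genes had both controls at or under the floor and 103 lowered genes had both SX-682 libraries there, so their fitted sizes are uncertain. The replicates lay close together, with a biological coefficient of variation of 2.78% in the fit of all 12 libraries, and the control and SX-682 values did not overlap for 70.4% of all tested genes. The median log2 fold change of the 16214 tested genes over the floor in both groups was 0.00.

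At the level of mRNA, the receptors that SX-682 inhibits were at the limit of detection in these cells. Their protein was not measured here. Cxcr1 had 0 and 0 counts in the controls and 5 and 0 with SX-682, and Cxcr2 had 1 and 0 in the controls and 0 and 0 with SX-682. Neither passed the test, with adjusted p-values of 0.0777 and 0.438 in edgeR's quasi-likelihood test. At these counts, the absence of a call says little about a change in either. Cxcl1, a ligand of CXCR2 (chr5:90891241-90893115, mm10), was measured well above the floor, at 12.7 CPM in both controls and at 41.4 and 40.8 CPM with SX-682. Both treated libraries lay above both controls, and the log2 fold change was 1.70 ± 0.05 (SE, n = 2 and 2, adjusted p = 3.37e-21, edgeR). Ackr3, the atypical receptor of CXCL12, was at 5.78 and 4.92 CPM in controls and 2.08 and 1.10 CPM with SX-682. It fell by 1.70 ± 0.16 on the log2 scale, and the groups did not overlap. The remaining tested ligands, Cxcl2, Cxcl5 and Cxcl15, did not pass the test.

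Genes of the integrated stress response rose together in B16F0. Of 24 tested genes of the ATF4-CHOP list, 23 were raised and 0 lowered, 15 of them by at least 2-fold, and the median log2 fold change of the 23 genes over the floor was 1.42. The exception was Stc2, with 0, 0, 0 and 2 counts in the 4 libraries. Atf4 itself, which encodes the transcription factor, was at 224 and 230 CPM in controls and at 462 and 459 CPM with SX-682, a log2 fold change of 1.02 ± 0.02 (SE, n = 2 and 2, adjusted p = 3.90e-24, edgeR). Ddit3, which encodes CHOP, was at 71.7 and 73.4 CPM against 288 and 316 CPM. Trib3 (chr2:152337422-152344032, mm10), a pseudokinase that restrains AKT and is induced by ATF4 and CHOP, was at 52.6 and 51.8 CPM against 322 and 319 CPM. In each of these genes both SX-682 libraries stood far above both controls. Gdf15, a secreted stress cytokine, went from 2.30 and 2.20 CPM to 11.7 and 12.3 CPM (log2 fold change 2.42 ± 0.10). The stress-inducible growth arrest gene Gadd45a went from 40.0 and 38.4 CPM to 202 and 206 CPM (2.38 ± 0.03). Fgf21, a stress hormone, had the largest fitted change among the 23 called genes at 2.70 ± 0.65, but at under 1 CPM in every library. Other abundant members with a 2-fold or larger rise were Asns, the asparagine synthetase, at 212 and 216 CPM against 500 and 501 CPM, and Slc7a11, the cystine importer, at 81.3 and 83.7 CPM against 346 and 334 CPM.

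**Figure D1:**
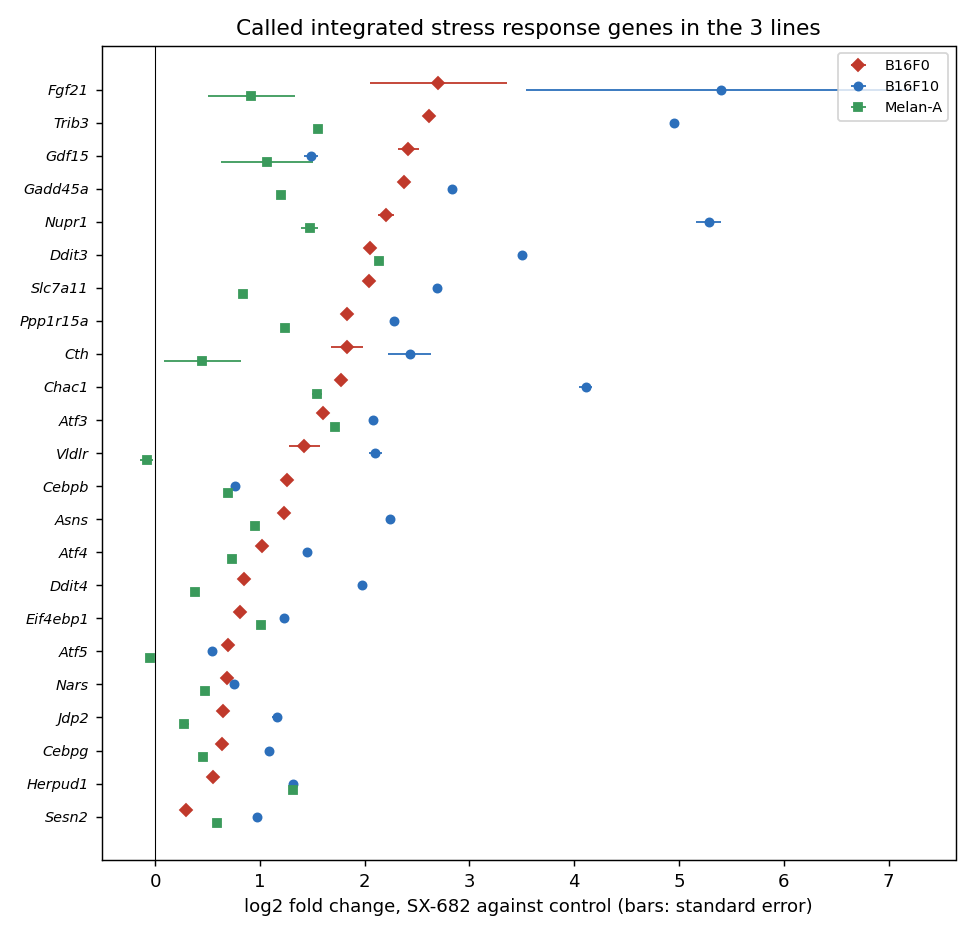
Log2 fold changes, SX-682 against control, of the 23 called ATF4-CHOP genes in B16F0 (red diamonds), B16F10 (blue circles) and Melan-A (green squares), with standard errors as bars and 2 control and 2 SX-682 libraries in each line. All B16F0 points lie to the right of 0, from 0.29 for Sesn2 to 2.70 for Fgf21, and Stc2, which was not called, is left out.

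To show sequence shared by genes of this group, promoters were taken from RefSeq on GRCm38.p6, from 250 bases before to 50 bases after the first listed start of each gene, and searched on both strands for TGATGNAA, the letters of the composite C/EBP-ATF element that ATF4 can bind. Promoter sequence was matched by symbol for 21 of the 24 genes, and 8 of them (38.1%) held a match, against 2.35% of the 12315 promoters matched to tested genes. For the cytosolic aminoacyl-tRNA synthetases the share was 5 of 12. Windows with 20 bases on each side of the match are given for 6 of these genes and for Pck2, the mitochondrial PEP carboxykinase, all of which rose at least 2-fold, to show the element in both orientations. They are written 5′ to 3′ on the strand of the gene, with the match in capitals.
Trib3, chr2:152344019-152344066, minus strand: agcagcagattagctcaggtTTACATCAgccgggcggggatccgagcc
Chac1, chr2:119351029-119351076, plus strand: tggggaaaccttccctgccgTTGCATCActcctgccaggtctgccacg
Nupr1, chr7:126625553-126625600, minus strand: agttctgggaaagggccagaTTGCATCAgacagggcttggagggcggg
Atf3, chr1:191183416-191183463, minus strand: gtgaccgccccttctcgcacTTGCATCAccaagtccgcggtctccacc
Asns, chr6:7693205-7693252, minus strand: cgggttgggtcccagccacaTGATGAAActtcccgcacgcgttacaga
Slc7a11, chr3:50443633-50443699, minus strand: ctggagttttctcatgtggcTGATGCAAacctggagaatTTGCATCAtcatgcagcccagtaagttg
Pck2, chr14:55540143-55540190, plus strand: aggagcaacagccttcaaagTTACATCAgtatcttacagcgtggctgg
The window of Slc7a11 holds 2 matches. Over all genes raised at least 2-fold the share of promoters with a match was 4.87%, and over those lowered at least 2-fold it was 3.72%. A match describes the letters of the window and says nothing of binding. The lists searched for elements were drawn up by function or pathway, with earlier results of these data known. Their shares are therefore descriptive and test nothing.

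Among these sequences, Chac1, which degrades glutathione, rose from 17.8 and 18.02 CPM to 61.7 and 60.9 CPM, and Nupr1, a stress-induced chromatin protein, from 7.80 and 8.31 CPM to 36.4 and 38.0 CPM. Atf3, a repressor and activator of the same family as ATF4, went from 25.0 and 23.1 CPM to 72.5 and 73.3 CPM. None of these genes had overlapping groups.

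Genes that supply amino acids rose with them, though the lists share members. Asns is in both the ATF4-CHOP and the synthesis list, and Slc7a11 in the ATF4-CHOP, transporter and NRF2 lists. Of 20 enzymes of serine, asparagine, proline and one-carbon synthesis, 16 were raised and 3 lowered, with a median log2 fold change of 0.68. The largest rises were those of Cth, which makes cysteine from cystathionine (5.17 and 4.39 CPM against 17.4 and 16.7 CPM, 1.83 ± 0.15), of Pycr1, a proline synthesis enzyme (12.6 and 11.8 CPM against 39.8 and 40.1 CPM, 1.71 ± 0.07), and of Aldh1l2, a mitochondrial folate enzyme (112 and 120 CPM against 311 and 316 CPM, 1.44 ± 0.03). Among the lowered members, Shmt1 and Pycrl fell by 0.61 and 0.13 on the log2 scale, and Pycrl lost its call without control replicate 1 (-0.0823), without SX-682 replicate 1 (-0.109), with DESeq2 (-0.113), with RLE scaling (-0.113), after thinning (-0.102) and at an adjusted p under 0.01. Of 22 amino acid transporters, 11 were raised and 7 lowered. Slc3a2, the heavy chain shared by several transporters, went from 235 in both controls to 687 and 669 CPM, and Slc1a4, a neutral amino acid exchanger, from 37.9 and 34.9 CPM to 93.7 and 93.3 CPM. Slc38a2, a glutamine and alanine importer, went the other way, from 281 and 282 CPM to 117 and 114 CPM (a fall of 1.28 ± 0.03 on the log2 scale). The 20 cytosolic aminoacyl-tRNA synthetases, which charge tRNAs, included 18 raised and 0 lowered genes, each by under 1 on the log2 scale, and Eprs was the highest at 0.94 ± 0.02. Tested against a fold of 1.5, 8 of them and 3.92% of all tested genes were raised. Their 17 mitochondrial counterparts showed no such direction, with 3 raised, 5 lowered and a median of -0.02.

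The genes of the endoplasmic reticulum (ER) moved opposite to the ATF4 group. Of 24 tested ER chaperones and unfolded protein response genes, 18 were lowered and 3 raised, with a median of -0.38, and against a fold of 1.5 these were 4 and 1, where 3.38% of all tested genes were lowered and 3.92% raised. Hspa5, the main ER chaperone (BiP), went from 1594 and 1586 CPM to 1210 and 1209 CPM. The largest falls were in Dnajc3, an inhibitor of the kinase PERK (206 and 197 CPM against 118 and 111 CPM, a fall of 0.81 ± 0.03 on the log2 scale), Manf and Creld2. The 3 raised genes were Atf6 and Ern1, sensors of unfolded protein, and the oxidase Ero1l. Of 17 cytosolic heat shock genes, 8 were raised and 5 lowered, and members split within families. Hspa1b, an inducible HSP70, rose from 9.65 and 9.55 CPM to 21.1 and 24.3 CPM, while the constitutive HSP70 gene Hspa8 fell from 2473 and 2457 CPM to 1495 and 1503 CPM. Hspa1b and Hspa1a are nearly identical copies, so reads may have been divided between them.

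Most antioxidant and p53-linked genes were raised. Of 22 genes of the NRF2 list, 14 were raised and 2 lowered, with a median of 0.26. Hmox1, heme oxygenase, went from 108 and 106 CPM to 218 and 223 CPM, and the ferritin subunits Ftl1 and Fth1 rose by 0.75 and 0.66 on the log2 scale. Trp53 itself had a log2 fold change of -0.06 ± 0.03 and did not pass the test (adjusted p = 0.0900, edgeR). Of the 24 tested genes of the p53 list 20 were raised and 1, Ei24, lowered, with a median of 0.44, and 5 were raised when tested against a fold of 1.5, where 3.92% of all tested genes were. Bbc3, the pro-apoptotic BCL2-family gene that encodes PUMA, was at 19.0 and 17.4 CPM in controls and 74.8 and 83.3 CPM with SX-682 (2.12 ± 0.05), and Plk2, a stress-inducible kinase, at 27.6 and 26.2 CPM against 87.5 and 92.7 CPM (1.74 ± 0.04). Cdkn1a, the cell cycle inhibitor p21, was at 742 and 697 CPM against 998 and 963 CPM (0.45 ± 0.02). The pro-apoptotic BCL2 family, Bbc3 included, was mixed, with 4 of 10 raised and 2 lowered, and of 4 anti-apoptotic members Bcl2l1 rose most, from 121 and 117 CPM to 186 and 189 CPM. Sqstm1, the autophagy receptor p62, was an abundant gene with a large rise, from 1456 and 1434 CPM to 4087 and 4245 CPM (1.53 ± 0.02), in a list of 24 autophagy genes of which 12 were raised and 4 lowered.

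**Figure D2:**
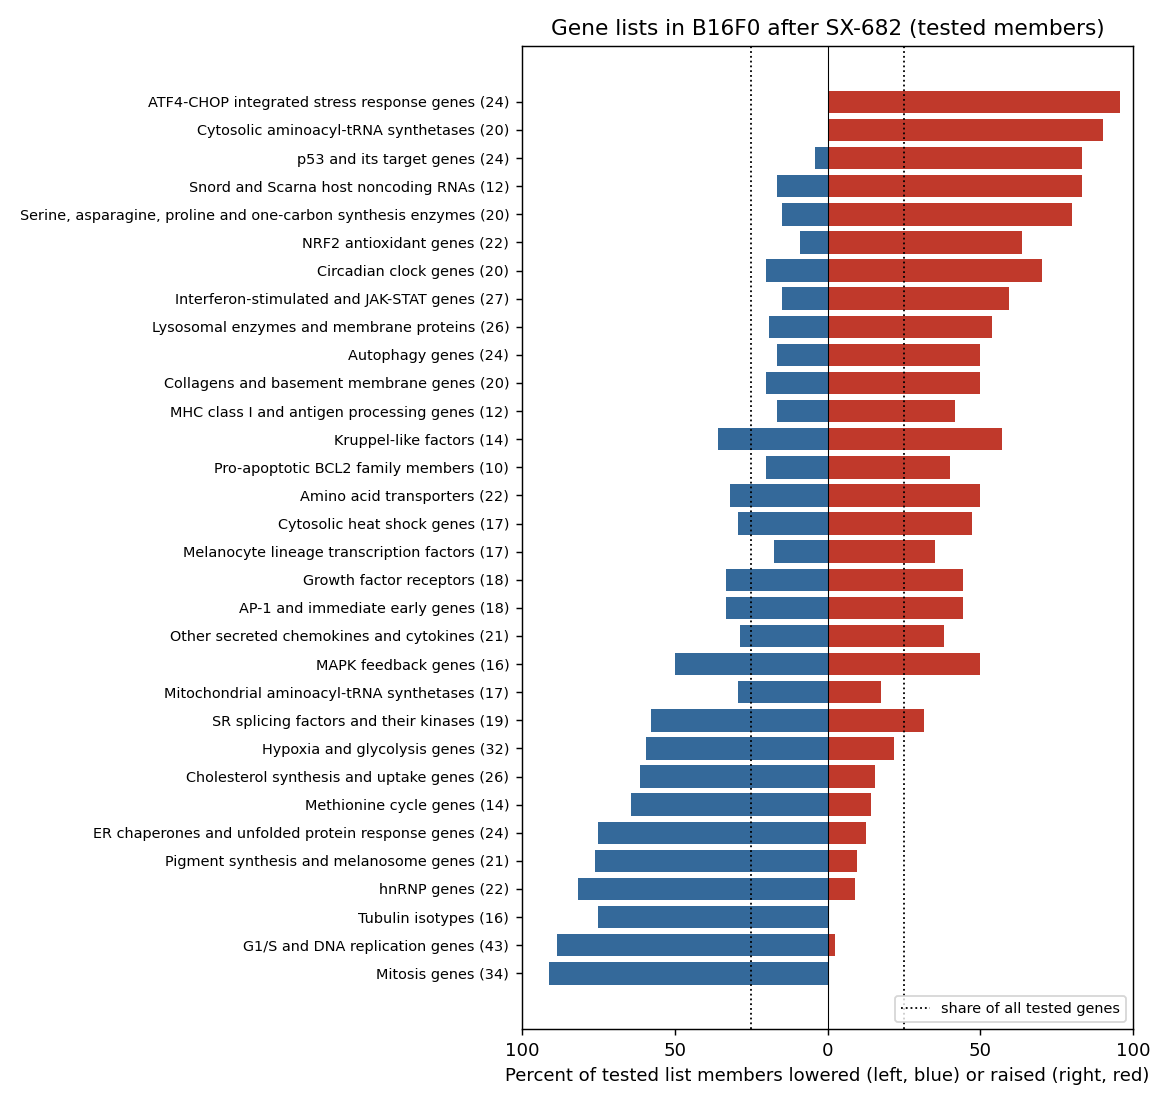
Share of the tested members of each gene list that edgeR called raised (red, to the right) or lowered (blue, to the left) in B16F0 after SX-682, with the number of tested members in brackets. Lists with at least 10 tested members are shown, without the markers of other cell types, and dotted lines mark the shares of all tested genes, 25.1% raised and 25.0% lowered. The ATF4-CHOP genes and cytosolic aminoacyl-tRNA synthetases stand at the raised end and the mitosis and G1/S genes at the lowered end.

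Cell cycle genes were lowered broadly and by small amounts. Of 43 genes of the G1/S transition and DNA replication, 38 were lowered and 1, Cdt1, raised, with a median log2 fold change of -0.43. Ccne2, a cyclin of S phase entry, had the largest fall, from 28.8 and 25.6 CPM to 7.32 and 6.54 CPM (a fall of 1.96 ± 0.08 on the log2 scale). Orc1, of the origin recognition complex, went from 13.0 and 13.4 CPM to 4.26 and 5.63 CPM, and Fen1, a replication nuclease, from 10.3 and 10.7 CPM to 5.30 and 4.34 CPM. Of 34 mitosis genes, 31 were lowered and 0 raised, with a median of -0.43 (2 lowered when tested against a fold of 1.5, and 9 of the G1/S genes, where 3.38% of all tested genes were), and the largest fall was 0.78 ± 0.04 on the log2 scale for the centromeric histone gene Cenpa (85.0 and 87.2 CPM against 50.6 and 49.9 CPM). The proliferation marker Mki67 was among the 3 that did not pass the test, at 479 and 497 CPM in the controls and 480 and 497 CPM with SX-682 (log2 fold change 0.00 ± 0.02, adjusted p = 0.987, edgeR). Of the inhibitors of cyclin-dependent kinases, Cdkn1b, which encodes p27, rose from 118 and 117 CPM to 239 and 227 CPM (0.99 ± 0.03), and Cdkn2a and Cdkn2b had 0 counts in every B16F0 library.

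**Figure D3:**
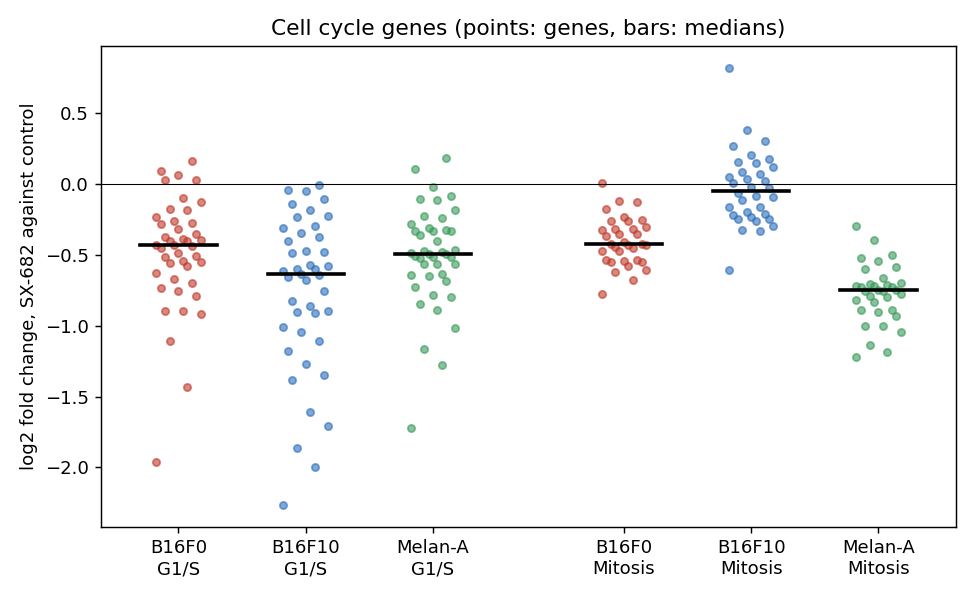
Log2 fold changes, SX-682 against control, of the 43 G1/S and DNA replication genes and the 34 mitosis genes in B16F0, B16F10 and Melan-A, with a point for each gene and a black bar for the median. In B16F0 the medians of both groups are -0.43, while the mitosis median is -0.05 in B16F10 and -0.75 in Melan-A.

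The mitosis genes responded differently in the 3 lines. Their median log2 fold change was -0.05 in B16F10 and -0.75 in Melan-A. The medians of the 16214 tested genes over the floor in B16F0 were 0.007 and 0 in these lines. The response in B16F0 differed from that in B16F10 for 30 of the 34 genes in the test of the difference itself, where 30.3% of all tested genes differed, and from that in Melan-A also for 30, where 34.4% of all did. For the G1/S genes these numbers were 32 and 23 of 43.

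Tubulin, hnRNP, SR splicing and cholesterol genes were mostly lowered. Of 16 tubulin isotypes 12 were lowered and 0 raised, 6 by at least 2-fold, with a median of -0.76. Tuba1a went from 511 and 509 CPM to 163 CPM in both SX-682 libraries (a fall of 1.65 ± 0.02 on the log2 scale), and Tubb4b from 398 and 390 CPM to 127 CPM in both (a fall of 1.63 ± 0.03). Tuba4a had the largest fall of the list, 1.74 ± 0.07 on the log2 scale, and Tuba8, Tubb4a, Tubg2 and Tube1 did not pass the test. Tubulin genes share long stretches of sequence, so reads may have been divided among them. Of 22 hnRNP genes, which package nuclear RNA, 18 were lowered and 2 raised, led by Hnrnpm (391 and 393 CPM against 194 and 191 CPM). Among SR splicing factors and their kinases, 11 of 19 were lowered and 6 raised. The factors Srsf1 (275 and 283 CPM against 103 and 98.5 CPM) and Srsf2 (205 and 206 CPM against 84.0 and 84.5 CPM) fell by 1.47 and 1.29 on the log2 scale, while the kinases Clk4 and Clk1 rose by 1.15 and 1.01. Of 26 genes of cholesterol synthesis and uptake, 16 were lowered and 4 raised. Hmgcs1, an enzyme early in the pathway, went from 300.2 and 297 CPM to 111 and 102 CPM (a fall of 1.48 ± 0.03 on the log2 scale). Mat2a, which makes S-adenosylmethionine, went from 180 and 182 CPM to 46.1 and 44.5 CPM (a log2 fold change of -1.998 ± 0.0351), and 9 of 14 tested methionine cycle genes were lowered.

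Circadian clock genes were among the largest rises. Of 20 tested, 14 were raised and 4 lowered, 8 by at least 2-fold and all of these upward, with a median of 0.72. Nr1d1, the repressor REV-ERBα, was at 13.3 and 12.8 CPM in controls and at 90.4 and 88.7 CPM with SX-682, a log2 fold change of 2.78 ± 0.05 (SE, n = 2 and 2, adjusted p = 1.26e-26, edgeR). Thra, on the opposite strand, overlaps 8.55% of its exonic bases, and the strand setting of the counting is not given. The repressor gene Per2 rose by 2.27 ± 0.28 from a low level (0.254 and 0.208 CPM against 1.03 and 1.246 CPM), and Dbp, an output activator of the clock, rose by 1.96 ± 0.09 (6.19 and 5.503 CPM against 22.7 and 22.9 CPM). The activators Arntl and Clock fell by 0.32 and 0.47 on the log2 scale, and Bhlhe40, another repressor, by 0.70. The fall of Arntl did not pass the test without SX-682 replicate 2 (-0.23). The time of day at which cultures were collected is not given in the sources used here, so it and SX-682 cannot be told apart in this group.

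Melanocyte identity genes were lowered, Mitf most. Of 9 identity markers tested, 8 were lowered and 0 raised, 7 of them by less than 1 on the log2 scale. Mitf (chr6:97807052-98021349, mm10), the lineage transcription factor, was at 371 and 362 CPM in controls and 86.8 and 82.4 CPM with SX-682, a fall of 2.11 ± 0.03 on the log2 scale (SE, n = 2 and 2, adjusted p = 2.16e-29, edgeR). Tyr, the tyrosinase that limits melanin synthesis, was at 517 and 514 CPM against 302 and 277 CPM (a fall of 0.83 ± 0.03 on the log2 scale). Tyrp1, a second melanin enzyme, was at 6419 and 6458 CPM against 5892 and 5824 CPM (a fall of 0.14 ± 0.02 on the log2 scale). Of 21 pigment and melanosome genes 16 were lowered and 2 raised, with a median of -0.43, and the largest fall was that of Slc24a4, an ion exchanger (14.5 and 15.99 CPM against 5.69 and 5.55 CPM). Kit, the stem cell factor receptor, had non-overlapping groups (4.20 and 4.36 CPM against 2.63 and 2.80 CPM) but did not pass the test, with an adjusted p of 0.0570 in edgeR. Lineage factors did not move together. Sox10 fell by 0.33 ± 0.03 on the log2 scale, whereas Pax3 rose from 203 and 208 CPM to 451 and 450 CPM (1.13 ± 0.03), Snai2 rose by 0.98 ± 0.07 and Tfap2a by 0.85 ± 0.04.

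The M-box, which MITF can bind, was searched in the same promoters as TCATGTG on both strands. It was found in 6 of 16 promoters of the pigment list and in 2.30% of the promoters matched to tested genes, and the windows of the 3 with the largest falls are shown with the match in capitals.
Tyr, chr7:87493508-87493554, minus strand: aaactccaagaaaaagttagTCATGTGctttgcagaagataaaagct
Slc24a5, chr2:125068094-125068140, plus strand: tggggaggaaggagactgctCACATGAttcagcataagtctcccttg
Trpm1, chr7:64153673-64153719, plus strand: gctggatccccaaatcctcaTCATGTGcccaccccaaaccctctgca
Slc24a5, a melanosomal exchanger, fell by 0.82 ± 0.03 on the log2 scale (270 and 267 CPM against 152 and 151 CPM) and Trpm1, a cation channel, by 0.50 ± 0.04 (146 and 142 CPM against 101 and 103 CPM). Tyrp1, Dct and Mc1r, which also held a match, fell by 0.14, 0.27 and 0.12. Over all genes lowered at least 2-fold, 2.48% of promoters held an M-box, against 3% over those raised at least 2-fold. The raised genes Asns and Slc7a11 held it too, and in Slc7a11 it lies within the window printed above, in lower case. In 35 promoters of the G1/S list, TTTCGCG, an E2F element, was found in 8 against 1.62% of the promoters of tested genes. TTATGNAA, the D-box of the clock, was found in 2 of 16 promoters of the clock list, those of Per1 and Per3, against 2.05%.

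Genes of immune communication were mixed. Of 27 interferon-stimulated and JAK-STAT genes 16 were raised and 4 lowered, with a median of 0.36 over the 26 above the floor. Mx2, an antiviral gene annotated as a polymorphic pseudogene, had the largest rise (0.761 and 0.654 CPM against 4.17 and 4.74 CPM, 2.64 ± 0.16), and Socs3, a feedback inhibitor of cytokine signalling, had the largest fall (10.8 and 9.99 CPM against 5.28 and 5.77 CPM). Cd274, which encodes PD-L1, rose from 7.12 and 7.33 CPM to 22.6 and 23.0 CPM (1.66 ± 0.08), and the peptide transporter Tap1 rose by 0.97 ± 0.05. Csf1, the macrophage growth factor, rose from 76.5 and 77.5 CPM to 192 and 187 CPM (1.30 ± 0.03), while Spp1 (osteopontin) and Il33 fell by 0.82 and 0.64 on the log2 scale. Vegfa, the vascular growth factor, fell from 72.8 and 67.1 CPM to 54.0 and 49.0 CPM (a fall of 0.44 ± 0.04 on the log2 scale), and 19 of 32 hypoxia and glycolysis genes were lowered and 7 raised. Met, the hepatocyte growth factor receptor, fell from 431 and 436 CPM to 199 and 203 CPM (a fall of 1.11 ± 0.03 on the log2 scale). Of 16 genes of MAPK feedback 8 were raised, led by Dusp2, and 8 lowered, led by Dusp5. Tfcp2l1, a transcription factor, was low throughout, with 6 and 7 counts in controls and 30 and 18 with SX-682 (2.18 ± 0.42, adjusted p = 5.93e-05, edgeR).

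Further groups moved less uniformly. Of 12 noncoding RNAs that host small nucleolar RNAs, 10 were raised and 2 lowered, with a median of 0.78. Snhg16 rose from 11.4 and 9.68 CPM to 44.7 and 38.9 CPM (1.99 ± 0.08) and the abundant Gas5 from 165 and 161 CPM to 275 and 295 CPM, whereas Snhg20 fell by 0.92 on the log2 scale. Among 18 immediate early genes, 8 were raised and 6 lowered, and the AP-1 subunit gene Junb rose by 1.01 while the zinc finger gene Egr1 fell by 1.76. Of 14 Kruppel-like factors, 8 were raised and 5 lowered, from a fall of 1.93 ± 0.20 for Klf2 to a rise of 0.99 ± 0.03 for Klf6. Lysosomal genes were raised in 14 and lowered in 5 of 26 cases, each by under 1 on the log2 scale. Of 20 collagens and basement membrane genes, 10 were raised and 4 lowered, and fibronectin (Fn1) went from 356 and 355 CPM to 582 and 578 CPM (0.71 ± 0.02). Of 18 growth factor receptors, 8 were raised and 6 lowered, with Insr, the insulin receptor, at 44.8 and 45.2 CPM against 77.4 and 76.5 CPM. Egfr, counted as raised, had 1 and 0 counts in controls and 12 and 0 with SX-682, so its groups overlapped.

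Ranked over called genes with a log2 mean CPM of at least 1, the largest rises belonged partly to genes outside these groups. Elfn2, a synaptic membrane protein gene, had 20 and 2 counts in controls and 331 and 293 with SX-682, and its log2 fold change was 5.15 ± 0.33 (n = 2 and 2, adjusted p = 5.05e-14, edgeR). The relaxin gene Rln1 went from 0.387 and 0.297 CPM to 5.42 and 5.73 CPM (4.01 ± 0.24), and Tmem121b from 0.360 and 0.520 CPM to 5.77 and 5.96 CPM (3.74 ± 0.20). Among genes at 100 CPM or more the largest rise was that of H1f2, a linker histone (34.3 and 33.9 CPM against 275 and 292 CPM, 3.06 ± 0.04). Ccn1, a matricellular protein and YAP target, was at 139 and 138 CPM in controls and 925 and 921 CPM with SX-682 (2.74 ± 0.02, adjusted p = 1.23e-34, edgeR). Arrdc3, an arrestin-domain adaptor, went from 32.1 and 32.3 CPM to 175 and 168 CPM. Rgs9bp and Sh3tc1 completed the 10 largest rises, with log2 fold changes of 2.61 and 2.50.

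At the other end, Lgr6, an R-spondin receptor (chr1:134983301-135105276, mm10), was at 11.8 and 10.4 CPM in controls and 1.15 and 0.914 CPM with SX-682, a fall of 3.40 ± 0.17 on the log2 scale (n = 2 and 2, adjusted p = 8.68e-17, edgeR). Hs3st1, a heparan sulfate sulfotransferase, went from 7.69 and 7.48 CPM to 0.865 and 1.04 CPM, and Stc1, a secreted glycoprotein, from 4.43 and 3.94 CPM to 0.759 and 0.852 CPM. Apold1, an endothelial-type early response gene, was the most abundant of the largest falls after Mitf and Mat2a, at 158 and 162 CPM against 32.5 and 31.6 CPM. Lpar5, a lysophosphatidic acid receptor, went from 12.1 and 12.8 CPM to 2.96 and 2.35 CPM. The remaining largest falls, Ripor2, Bbs12 and Gdpgp1, lay between 2.02 and 2.15 on the log2 scale.

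**Figure D4:**
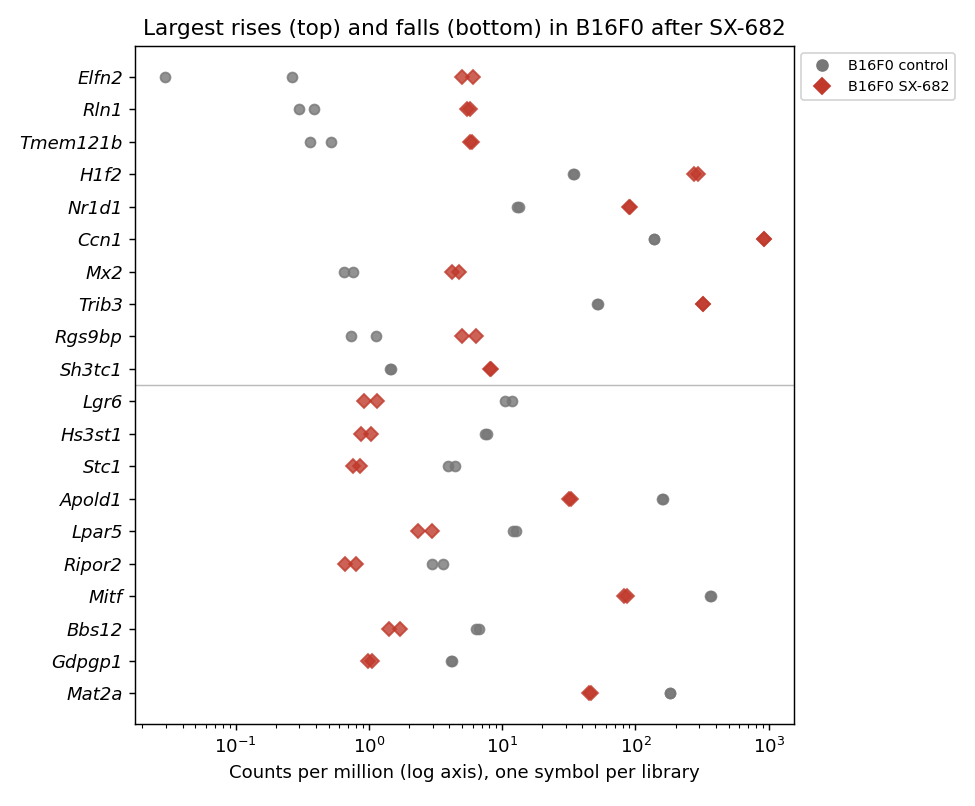
CPM on a log axis for the 10 genes with the largest rises (top) and the 10 with the largest falls (bottom) in B16F0, with a grey circle for each of the 2 control libraries and a red diamond for each of the 2 SX-682 libraries. The groups do not overlap for any of the 20 genes, as the rule that chose them required.

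The B16F0 response was set against that of the other lines by the difference of the 2 log2 fold changes, tested in the same fit. It differed from the B16F10 response for 30.3% of tested genes and from the Melan-A response for 34.4%, and 2586 genes passed both tests with the same sign, 1370 of them above both lines and 1216 below. The ranking below was made only within these genes, so the genes it gave passed both tests by the rule that chose them. Ranked by the difference from the mean of the other lines, Cxcl1 came first among genes above both. Its log2 fold change was 1.70 in B16F0 against 0.69 in B16F10 and -2.25 in Melan-A (adjusted p of the differences 1.39e-12 and 2.41e-12, edgeR). Melan-A held few Cxcl1 reads, 55 and 61 counts in its controls and 14 and 6 with SX-682. Ccn1 rose by 2.74 in B16F0 and 0.84 in B16F10 and fell by 0.13 in Melan-A, and its relative Ccn2 rose by 0.94 in B16F0 but fell by 0.81 in B16F10 and by 1.63 in Melan-A. The annotation places an opposite-strand gene over 23.2% of the exonic bases of Ccn2. Among other genes named here, such overlaps covered 19.1% of Gadd45a, 12.1% of Hmgcs1 and 11.3% of Mat2a, and a same-strand gene covered 26.2% of Tuba1a, so reads of these genes may be shared. The flippase gene Atp8b3 rose in B16F0 (0.988 and 0.758 CPM against 3.28 and 3.43 CPM), with log2 fold changes in B16F10 and Melan-A of 0.16 and 0.22 that did not pass the test. Prokr1, a prokineticin receptor, fell by 0.66 in B16F0 and further in the others, by 1.82 and 2.63.

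Below both lines, Dhrs3, which reduces retinal, went from 13.4 and 12.2 CPM to 4.23 and 3.24 CPM in B16F0, a log2 fold change of -1.76, against 1.51 in B16F10 and -0.55 in Melan-A, where it did not pass the test. Lgr6 and Hs3st1, the largest falls in B16F0, had log2 fold changes of -1.71 and -2.08 in B16F10 and of -0.73 and 0.06 in Melan-A, the last of which did not pass the test. Ngfr, the nerve growth factor receptor of neural crest cells, fell by 0.47 in B16F0 while it rose by 0.26 in B16F10 and by 2.15 in Melan-A, the last from 5 and 4 counts. Mamdc2 did not pass the test in B16F0 (-0.19 ± 0.22), and its difference from B16F10 rests on B16F10 libraries with 0 and 0 counts untreated and 4 and 3 treated. Mitf fell more in B16F0 than in B16F10 (-1.14) and Melan-A (-0.36), whereas Tyr fell less in B16F0 than in B16F10 (-1.92) and Melan-A (-1.55). Trib3, Ddit3 and Atf4 rose less in B16F0 than in B16F10, where their log2 fold changes were 4.95, 3.50 and 1.45. All 3 of these differences passed the test. The median of the 23 ATF4-CHOP genes over the floor was 1.42 in B16F0 and 2.08 in B16F10. Gdf15, also of that list, rose more in B16F0 (2.42) than in B16F10 (1.49). Vegfa fell in B16F0 and rose by 0.61 in B16F10 and 0.80 in Melan-A. Mitf and Vegfa, which were not chosen by their differences, passed the tests of the difference from both lines. Lgr6, Ccn1, Cxcl1 and Dhrs3 passed both by the rule that ranked them.

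**Figure D5:**
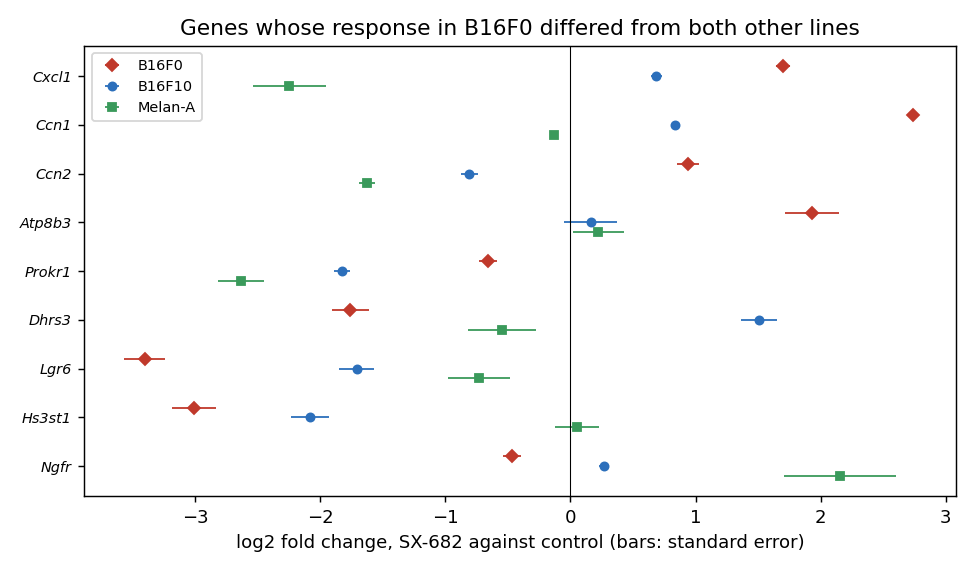
Log2 fold changes, SX-682 against control, in B16F0 (red diamonds), B16F10 (blue circles) and Melan-A (green squares) for 9 genes chosen for the largest differences between B16F0 and the mean of the other lines, with standard errors as bars and 2 control and 2 SX-682 libraries in each line. Cxcl1, Ccn1, Ccn2, Atp8b3 and Prokr1 lie above both other lines in B16F0, and Dhrs3, Lgr6, Hs3st1 and Ngfr lie below. Mamdc2, with B16F10 controls at 0 counts, is left out. The choice was made among genes that passed the tests of the difference from both lines with the same sign.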

How the data were processed

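RNA of cell cultures was extracted with the RNeasy Plus Mini kit and sequenced on Illumina libraries. The authors deposited counts of reads for each gene, without normalization, and per the labels their processing used mm10 with cutadapt, STAR and DESeq2. The counting program, its strand setting and the tool versions are not given in the sources used here. Libraries were grouped by their GEO labels. All 12 were fitted together with edgeR 4.0.16 (R 4.3.3; quasi-likelihood test, TMM scaling, expression filter by group, prior count 0.125, no block), with Benjamini-Hochberg adjustment over 18338 genes at 0.05. Fold changes are on the log2 scale, standard errors derive from the F statistic and CPM are scaled by TMM. The fit was tested on simulated counts, where recovery was poor for genes under 100 counts per library. The members and gene lists were chosen with earlier results of these data known.

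Genes were named by rule. The first were the 10 largest rises and falls (log2 mean CPM of at least 1, groups not overlapping, Gm, Rik and -ps symbols left out). To these came the 5 largest rises and falls at 100 CPM or more, and up to 3 rises and falls of each list with a few fixed genes. The last were the 5 largest differences from the other lines in each direction. They were taken among genes that passed both tests of the difference with the same sign. Members named beyond these rules, including those that did not pass the test, were chosen after their values were seen. The promoters printed and the use of list medians over genes above the floor were also chosen then. limma 3.58.1, DESeq2 1.42.0 and the other alternatives are described with their effects at the end. Library totals set the precision, and floors cover counting error only. Results for some genes are not reported here.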

Additional observations from a re-analysis of the deposited data

Results flagged for a closer look

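The response in B16F0 differed from that of another line, by the test of the difference itself, in 5551 genes against B16F10 and in 6300 genes against Melan-A. Of 40 named genes examined for this, 28 differed from B16F10 and 35 from Melan-A, where 30.3% and 34.4% of all tested genes did. These 40 include 10 genes picked for large differences from both lines, which differ by that choice, so nothing is read from the counts. The values are log2 fold changes in B16F0 minus those in the other line, so a positive value means a higher change in B16F0. Why the lines differ was not tested.

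Against B16F10, the difference was 1.90 for Ccn1, 1.77 for Atp8b3, 1.75 for Ccn2, 1.17 for Prokr1, 1.09 for Tyr, 1.01 for Cxcl1, 0.87 for Stc1, 0.84 for Mat2a, 0.78 for H1f2, 0.43 for Cdkn1a and 0.27 for Hmgcs1. On the negative side it was -0.30 for Tubb4b, -0.31 for Tuba1a, -0.43 for Atf4, -0.46 for Gadd45a, -0.73 for Ngfr, -0.91 for Arrdc3, -0.93 for Hs3st1, -0.97 for Mitf, -1.05 for Vegfa, -1.07 for Bbs12, -1.09 for Gdpgp1, -1.45 for Ddit3, -1.69 for Lgr6, -2.25 for Rgs9bp, -2.34 for Trib3, -3.27 for Dhrs3 and -5.25 for Mamdc2. The Mamdc2 value rests on B16F10 controls with 0 counts and is no measure of size.

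Against Melan-A, the difference was 3.94 for Cxcl1, 3.34 for Elfn2, 2.87 for Ccn1, 2.57 for Ccn2, 2.27 for Tmem121b, 1.98 for Prokr1, 1.97 for H1f2, 1.71 for Atp8b3, 1.59 for Sh3tc1, 1.45 for Tfcp2l1, 1.17 for Gadd45a, 1.11 for Rgs9bp, 1.06 for Trib3, 0.85 for Arrdc3, 0.79 for Nr1d1, 0.75 for Mki67, 0.72 for Tyr and 0.29 for Atf4. On the negative side it was -0.21 for Tubb4b, -0.30 for Mat2a, -0.49 for Sox10, -0.50 for Hmgcs1, -0.51 for Tuba1a, -1.22 for Dhrs3, -1.24 for Vegfa, -1.75 for Mitf, -1.79 for Gdpgp1, -1.80 for Mamdc2, -1.94 for Bbs12, -2.20 for Lpar5, -2.21 for Apold1, -2.62 for Ngfr, -2.67 for Lgr6, -2.94 for Stc1 and -3.06 for Hs3st1. Lpar5 had at most 6 counts in any Melan-A library, and the Ngfr controls of Melan-A had 5 and 4.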

How the results depend on the processing

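With 2 libraries per group, changes of genes under the floor had no reliable size. Ccl7, for example, was called raised at 0 and 0 counts in controls and 2 and 3 with SX-682. Small changes passed the threshold because the replicates lay close together. The counts of called genes stayed within 1.5 times the reported ones under DESeq2, limma-voom, RLE scaling, library totals, removal of the 50 highest genes, no filter, a separate fit, a prior count of 2, thinning and an adjusted p under 0.01. Exceptions came from other limits. A fold change tested against 1.5 left 1339 changed genes (719 raised, 620 lowered), 778 changed at least 2-fold, 259 that differed from B16F10 and 577 that differed from Melan-A. At least 10 counts in every library left 607 genes changed at least 2-fold.

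Leaving out each B16F0 library in turn gave 7976 to 8352 changed genes, 3955 to 4136 raised, 4021 to 4216 lowered, 1153 to 1280 changed at least 2-fold, 4843 to 5273 that differed from B16F10 and 5599 to 6008 that differed from Melan-A. Libraries that share a replicate number showed no common deviation (correlation 0.0522 in B16F0, -0.00493 in B16F10 and -0.0276 in Melan-A). A replicate block in the fit called 9150 genes, of which 9040 were called in the same direction without it. Other scalings shifted the median log2 fold change by at most 0.02.

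Of 3672 values of 218 named genes, 3507 kept their direction and side of the threshold and 4 reversed. The call was lost by 90 genes against a fold of 1.5, by 12 at an adjusted p under 0.01 and by 17 in at least 1 other setting. Mki67, which was not called, was at -0.0137 with library totals and between -0.0227 and 0.0287 when a library was left out. Egfr, with 12 of its reads in 1 library, ranged from -2.28 without SX-682 replicate 1 to 5.80 without control replicate 1. Of 1292 list counts, 1188 stayed within 1.5 times the reported one.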
